A study of Mus musculus with 27 samples.

Results

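The fibroblast growth factor (FGF) ligands and receptors examined here were 9 genes, the ligands Fgf4, Fgf5, Fgf8, Fgf15 and Fgf17 and the receptors Fgfr1, Fgfr2, Fgfr3 and Fgfr4. They were picked by symbol out of the 23604 genes of the bulk expression table, which covered 19 libraries of mouse pluripotent stem cells. In single formative cells, all 9 had a row in the table of clones 1 and 2 (16299 genes), and 8 of them, without Fgfr4, in that of clones 3 and 4 (16176 genes).

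FGF ligands are secreted proteins that bind receptor tyrosine kinases together with heparan sulphate on the cell surface, and the activated receptor signals through adaptor proteins to the RAS and ERK kinases. In the mouse, FGF4 is the autocrine ligand that moves naive embryonic stem cells out of self-renewal, Fgf5 marks the epiblast after implantation, and Fgf8 is made by the primitive streak as gastrulation starts. FGFR1 is the main FGF receptor of the epiblast, and FGFR2 that of the primitive endoderm and the trophoblast.

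The study set out to hold mouse cells in a formative state of pluripotency, which lies between the naive state of embryonic stem cells (mESCs) and the primed state of epiblast stem cells (EpiSCs). All cells were labelled wild type, though the study describes the 46C, BVSC and ROSAmTmG lines named below as carrying reporter genes. The mESCs (2 libraries) were grown without feeder cells in 2i/LIF, that is with PD035901 (1 µM, a MEK inhibitor), Chir99021 (3 µM, a GSK3 inhibitor) and the cytokine LIF, and with no FGF added. Epiblast-like cells (EpiLCs, 2 libraries) and Epiblastoids, which are mESC-derived spheres in Matrigel (1 library each on days 2, 3 and 4), were made in Activin A (20 ng/ml), bFgf2 (12 ng/ml) and 1% KSR, a serum replacement. The EpiSCs (2 libraries) grew on mitomycin-treated embryonic fibroblasts with 15% KSR, Activin A (20 ng/ml), bFgf2 (12 ng/ml) and the tankyrase inhibitor XAV939 (5 µM). The formative cells (fPSCs) grew in Matrigel with the same doses of Activin A, bFgf2 and XAV939, though the labels of the later fPSC libraries write mM for XAV939 and the 2i inhibitors where the earlier ones write µM. They comprised 1 library at passage 1 (P1), 3 of the CMT line at P10, P20 and P30, 1 each of CMT at P11, 46C at P24, BVSC at P14 and ROSAmTmG at P12, and 2 made from E5.5 and E6.5 epiblasts at P10. Medium and cell state changed together in every comparison of mESCs, EpiLCs, EpiSCs and fPSCs and cannot be told apart, and FGF protein was added to every culture but the mESCs.

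Expression was given as FPKM, fragments scaled to the length of the transcript and to the mapped fragments of the library, so levels of different genes can be compared per length. From the steps between low values, depth came to about 15000000 to 37600000 fragments, and 1 fragment on a 4-kb transcript was worth 0.007 to 0.0176 FPKM. The shared pluripotency genes summed to 616 to 1333 FPKM in every library, and naive markers to at least 1214 in mESCs and at most 93.8 elsewhere. Fibroblast markers (20 genes) summed to 777 to 950 FPKM in EpiSCs, with Col1a1 at 111 and 153 FPKM, against 4.36 to 51.3 in the other libraries. The fPSC libraries of CMT P11, 46C, BVSC and ROSAmTmG were submitted later and with another library kit named (label set 2), and 29.7% of 10930 genes differed between them and the 3 of label set 1. Nothing in the labels says that libraries of a group were separate cultures, so the spread within a group may be technical. In the fit of 13 libraries below, 7 were long-term fPSCs of several lines, passages and label sets. The pooled spread behind its p-values also holds those differences, and CMT libraries of different passages count as separate replicates.

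Sequences at the start of 3 members are shown because the promoters of Fgf4 and Fgf5, genes that moved in opposite directions between mESCs and fPSCs, were both rich in CG, whereas the RefSeq start of Fgfr2 shown here, which lies downstream of the start of its longest Ensembl transcript, was poor in it. Each line holds the 250 bases before the RefSeq start (GRCm38.p6), read along the gene's strand, with each CG, the dinucleotide at which mammalian DNA is methylated, in capitals.
Fgf4: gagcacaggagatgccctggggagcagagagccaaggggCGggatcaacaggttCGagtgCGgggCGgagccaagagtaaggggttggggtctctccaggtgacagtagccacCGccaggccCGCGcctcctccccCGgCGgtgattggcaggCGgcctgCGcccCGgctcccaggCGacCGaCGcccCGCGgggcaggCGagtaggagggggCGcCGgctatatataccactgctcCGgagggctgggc
Fgf5: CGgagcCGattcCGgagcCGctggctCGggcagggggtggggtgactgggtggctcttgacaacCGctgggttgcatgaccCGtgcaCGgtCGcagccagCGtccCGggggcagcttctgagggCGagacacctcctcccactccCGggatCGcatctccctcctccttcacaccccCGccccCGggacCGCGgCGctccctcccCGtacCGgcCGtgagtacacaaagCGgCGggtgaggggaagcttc
Fgfr2: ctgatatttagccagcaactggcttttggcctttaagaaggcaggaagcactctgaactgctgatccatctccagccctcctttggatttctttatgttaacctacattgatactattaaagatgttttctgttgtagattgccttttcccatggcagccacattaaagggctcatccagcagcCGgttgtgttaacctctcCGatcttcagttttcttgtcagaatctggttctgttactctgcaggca
In mm9 coordinates, the build of the deposited tracks, these are chr7:152047041-152047290 on the plus strand (Fgf4), chr5:98682953-98683202 on the plus strand (Fgf5) and chr7:137410323-137410572 on the minus strand (Fgfr2), each with 1 exact match on its chromosome. They hold 21, 24 and 2 CG, which placed them at percentiles 84.4, 88.7 and 23.9 of 32851 RefSeq promoters, whose median was 6. In fPSCs, the 3 methylation windows in the Fgf4 stretch were all at 0, the 4 in the Fgf5 stretch lay between 0 and 0.06, and the 1 in the Fgfr2 stretch stood at 0.54.

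Fgf4 also carries a SOX and octamer pair near its end, the arrangement that SOX2 and OCT4 are known to bind together in this gene, shown with both motifs in capitals.
Fgf4 SOX and octamer pair: aaactCTTTGTttggATGCTAAtggga
It lies at chr7:152050294-152050320 (mm9, plus strand), with the CTTTGT beginning 3008 bases after the start of the gene and 849 before its annotated end, in the last exon and after the stop codon. The motifs CTTTGT and ATGCTAA, searched on both strands at most 6 bases apart, occurred together in 69 of 22367 regions that ran 5000 bases from a protein-coding start (0.308%). The 8 methylation windows within 500 bases of the pair ran from 0 to 1 in fPSCs, with a mean of 0.609.

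In the genome, Fgf15 begins 31289 bases after the end of Fgf4 on the same strand. Ensembl places Fgf4 (ENSMUSG00000050917) at chr7:152047291-152051148, Fgf15 at chr7:152082437-152086858 and Fgfr3 at chr5:34064373-34079716, all in mm9. Fgf5 lies at chr5:98683203-98706049 and Fgf8, on the minus strand, at chr19:45811288-45817405. Fgfr1 spans chr8:26624126-26686186 and Fgfr4 chr13:55254001-55270120. Fgf17 lies at chr14:71036012-71042075 on the minus strand. Fgfr2 is annotated at chr7:137305965-140315033, a span of 3.01 Mb that rests on 1 transcript.

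The 13 libraries of mESCs, EpiLCs, EpiSCs and long-term fPSCs were compared in 1 fit. Of the 9 members, 7 passed a filter of 1 FPKM in 2 or more of these libraries, and these were tested with limma over 12513 genes on log2(FPKM + 1). A member counted as changed where its fold was at least 1.5 and its p, adjusted after Benjamini and Hochberg, under 0.05. From mESCs to EpiLCs, 4 of the 7 rose (Fgf5, Fgf15, Fgf8 and Fgfr2), where 12.2% of all genes tested rose, 17.4% fell and 29.6% did either. Without mESC library 2, 2 of them passed. From mESCs to fPSCs, 4 rose (the same genes) and 1 fell (Fgf4), against 17.3% and 23% of all genes, or 40.3% in both directions. From mESCs to EpiSCs, 5 rose, with Fgfr1 added, and 1 fell (Fgf4), against 23.1% and 24.7%, or 47.8% in both. Between EpiLCs and fPSCs, Fgf8 and Fgf5 rose and Fgf4 fell, against 5.66% and 8.15% of all genes, or 13.8% in both. Between EpiLCs and EpiSCs, 1 rose (Fgf8) and 2 fell (Fgf4 and Fgf5), against 20.4% and 15.5%, or 35.9% in both. EpiSCs had 1 member above fPSCs (Fgfr1) and 2 below (Fgf5 and Fgf8), against 19% and 13.3%, or 32.3% in both. Over all genes tested, values did not overlap for 27.1% of genes between EpiLCs and fPSCs and up to 80.9% between mESCs and EpiSCs. These comparisons share libraries, and the study itself named Fgf5 as a formative gene and Fgf8 as a possible marker of the formative state on these samples, so their direction is not independent evidence. In bulk samples, fewer expressing cells and less RNA per cell cannot be told apart.

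Fgf4 was the ligand of naive cells. It stood at 97.7 and 92.5 FPKM in mESCs, at 58.6 and 58.9 in EpiLCs and at 2.88 and 3.03 in EpiSCs. In the 7 long-term fPSC libraries it ran from 2.09 in 46C through a median of 6.54 to 17.4 in ROSAmTmG. The mESC and EpiLC values lay above every fPSC and EpiSC value. Relative to mESCs, Fgf4 fell by 3.6 on the log2 scale in fPSCs (SE 0.46, adjusted p = 3.47e-05) and by 4.60 in EpiSCs (SE 0.57, adjusted p = 2.78e-05). It fell by 2.91 from EpiLCs to fPSCs (adjusted p = 0.000785) and by 3.92 from EpiLCs to EpiSCs (adjusted p = 0.000184). The difference between EpiLCs and mESCs was -0.68 (SE 0.57, adjusted p = 0.409) in the fit whose spread all 13 libraries share, and it passed in a fit of these groups alone (adjusted p = 0.0497). EpiSCs differed from fPSCs by -1.0 (adjusted p = 0.105), which passed without the 46C library (-1.23, adjusted p = 0.0138) and against the fPSCs of label set 1 alone (-1.05, adjusted p = 0.00434).

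Fgf5, the epiblast ligand, was near 0 in mESCs, at 0.0558 and 0.0191 FPKM. It reached 44.0 and 54.1 in EpiLCs and 10.3 and 14.7 in EpiSCs. In fPSCs it ran from 72.9 in CMT P30 through a median of 93.1 to 109 in 46C. The 4 groups did not overlap, and the order was fPSCs, EpiLCs, EpiSCs and mESCs. Fgf5 was also the least variable member among the fPSC libraries, with a coefficient of variation of 14%. It was higher in EpiLCs than in mESCs by 5.59 on the log2 scale (SE 0.22, adjusted p = 1.7e-09) and in fPSCs than in EpiLCs by 0.90 (SE 0.18, adjusted p = 0.00403). The step from EpiLCs to fPSCs did not pass without EpiLC library 1 (0.76, adjusted p = 0.0879). EpiSCs lay below EpiLCs with a log2 difference of -1.90 (adjusted p = 3e-05), and below fPSCs with a difference of -2.80 (adjusted p = 9.01e-08).

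Fgf8, the streak ligand, was the member that separated fPSCs most from EpiLCs. Its values were 0.330 and 0 FPKM in mESCs, 3.11 and 1.03 in EpiLCs, and 15.1 and 20.0 in EpiSCs. Long-term fPSCs ran from 45.4 in BVSC through a median of 75.1 to 102 in CMT P20. No long-term fPSC library was as low as any library of the other 3 groups, whereas the P1 library, at 4.23, was still near the EpiLCs. Fgf8 was higher in fPSCs than in EpiLCs by 4.63 on the log2 scale (SE 0.33, adjusted p = 6.07e-07) and in EpiSCs than in EpiLCs by 2.67 (SE 0.41, adjusted p = 0.000281). EpiSCs lay below fPSCs with a difference of -1.96 (adjusted p = 0.000602), which did not pass when the P1 and epiblast-derived libraries were added to the fPSCs (-1.78, adjusted p = 0.12). The rise from mESCs to EpiLCs was 1.32 (SE 0.41, adjusted p = 0.0273). It did not pass with no filter on low values (adjusted p = 0.0611), nor without EpiLC library 1 (0.81, adjusted p = 0.254), mESC library 1 (1.53, adjusted p = 0.059) or mESC library 2 (1.12, adjusted p = 0.164). Mesoderm and streak markers (9 genes) summed to 5.76 to 6.53 FPKM in EpiLCs, 74.2 to 98.9 in EpiSCs and 32.9 to 201 in fPSCs, and their part in the Fgf8 difference was not tested.

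Fgf15, the mouse counterpart of human FGF19 and a hormone-like ligand of the gut, was at 0.47 and 0.094 FPKM in mESCs. It stood at 29.1 and 19.9 in EpiLCs and at 18.4 and 12.6 in EpiSCs. In fPSCs it ran from 8.25 in 46C through a median of 15.2 to 26.1 in ROSAmTmG. All libraries outside the mESCs thus lay above the mESCs, and the fPSC range overlapped those of EpiLCs and EpiSCs, whereas both EpiLC values lay above both EpiSC values. Fgf15 rose from mESCs by 4.31 in EpiLCs (SE 0.40, adjusted p = 4.07e-06), 3.61 in fPSCs (SE 0.32, adjusted p = 1.25e-06) and 3.68 in EpiSCs (SE 0.40, adjusted p = 8.58e-06), on the log2 scale. No difference among the last 3 groups passed, the largest being -0.70 between fPSCs and EpiLCs (adjusted p = 0.180).

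Fgf17, a ligand of the FGF8 subfamily, was low in every library. It was at 2.82 and 2.79 FPKM in mESCs, 3.64 and 3.08 in EpiLCs, 2.04 and 4.15 in EpiSCs, and 2.70 to 6.65 in fPSCs with a median of 5.00. The ranges of all groups but mESCs and EpiLCs overlapped. Its value in fPSCs differed from that in mESCs by 0.59 (SE 0.29, adjusted p = 0.112). This passed without CMT P11 (0.70, adjusted p = 0.0448) and with the fPSCs of label set 1 alone (0.77, adjusted p = 0.0347).

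**Figure D1:**
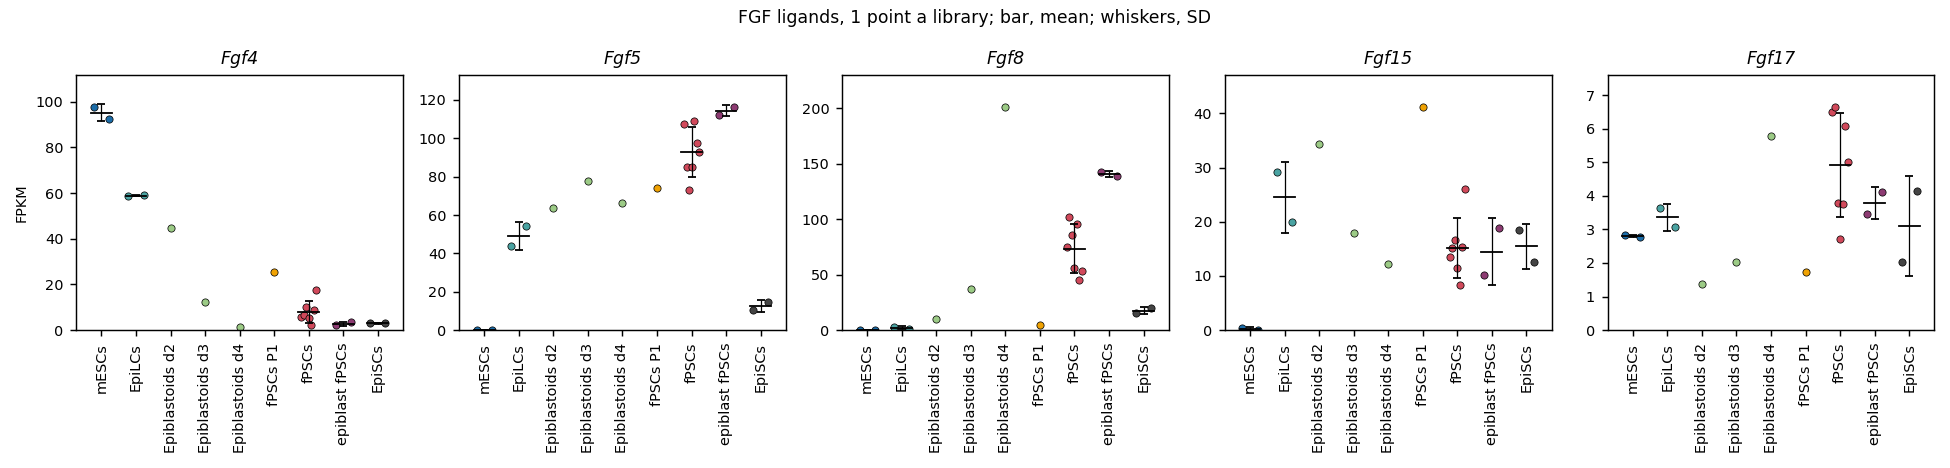
FPKM of the 5 ligands in each of the 19 libraries, 1 point per library, by group, with the horizontal bar at the group mean and a separate linear axis per gene. Fgf4 sits highest in the 2 mESC libraries (92.5 and 97.7 FPKM), Fgf5 in the 2 epiblast-derived fPSC libraries (112 and 116 FPKM), and Fgf8 in the day 4 Epiblastoids (201 FPKM).

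The makeup of the ligands, compared per length, differed between the states. Fgf4 made up 96.4 to 97.0% of the summed FPKM of the 5 ligands in mESCs and 42.3 to 43.0% in EpiLCs. In fPSCs it made up 0.96 to 8.9%, while Fgf5 took 38.6 to 56.3% and Fgf8 26.2 to 47.3%. In EpiSCs the sum was spread more evenly, with Fgf8 at 31.0 to 36.8%, Fgf15 at 23.0 to 37.8% and Fgf5 at 21.2 to 27%. The ligand with the highest FPKM was Fgf4 in 4 libraries (mESCs and EpiLCs), Fgf5 in 8, Fgf8 in 6 and Fgf15 in 1. The sum itself was 95.4 to 101 FPKM in mESCs, 137 to 138.5 in EpiLCs, 48.7 to 54.5 in EpiSCs and 161 to 219 in fPSCs, so that EpiSCs held the lowest sum. The EpiSC libraries also held the fibroblast markers, whose part in this sum and in the levels of its ligands was not tested.

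**Figure D2:**
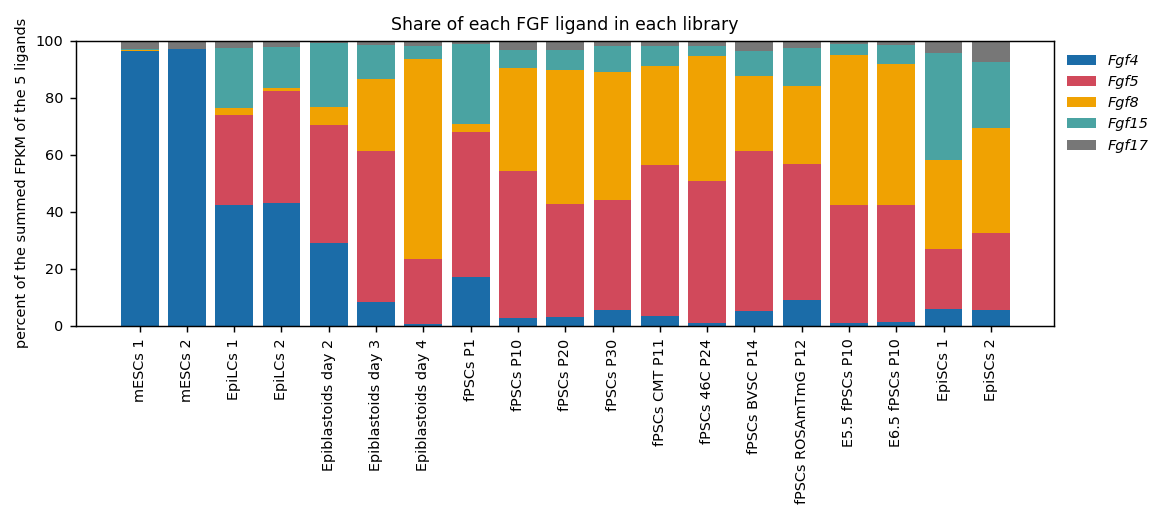
Share of each ligand in the summed FPKM of the 5 ligands, in percent, with 1 stacked bar for each of the 19 libraries. Fgf4 fills at least 96.4% of the bar in mESCs and 42.3 to 43.0% in EpiLCs, and Fgf5 and Fgf8 fill most of it in long-term fPSCs.

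The day series of Epiblastoids, 1 library a day and so without a test, spanned most of this range for Fgf4 and Fgf8. Fgf4 was at 44.7 FPKM on day 2, 12.4 on day 3 and 1.54 on day 4, while Fgf8 was at 9.72, 36.9 and 201. Fgf5 stayed at 63.4, 77.9 and 66.0, and Fgf15 went from 34.4 to 17.9 and 12.1. Past a fold of 2 on FPKM + 1 were 2 members from day 2 to day 3 (Fgf4 lower, Fgf8 higher), where 3.11% of 11095 genes were higher, 2.47% lower and 5.58% either. From day 3 to day 4 there were 3 (Fgf4 lower, Fgf8 and Fgf17 higher), where 7.85% of 11357 genes were higher, 8.22% lower and 16.1% either. From day 2 to day 4 there were 4, Fgf4 (log2 ratio -4.17) and Fgf15 (-1.43) lower and Fgf8 (4.24) and Fgf17 (1.52) higher, where 8.67% of 11369 genes were higher, 6.56% lower and 15.2% either. Fgf17 went from 1.37 FPKM on day 2 to 5.79 on day 4, which exceeded every library outside the long-term fPSCs. Under upper-quartile scaling Fgf15 passed the fold of 2 from day 2 to day 3 as well (-1.14), and with a pseudocount of 0.1 Fgfr2 passed it from day 2 to day 4 (-1.14). Streak markers summed to 9.87, 59.7 and 735 FPKM on the 3 days, trophoblast markers to 257 and extraembryonic endoderm markers to 83.0 on day 4, and their part in the ligand levels was not tested. Such sums were not particular to day 4. Trophoblast markers ran up to 262 FPKM in long-term fPSCs and 809 in EpiSCs, and extraembryonic endoderm markers up to 84.2 in long-term fPSCs.

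In the P1 library Fgf4 stood at 25.3 FPKM and Fgf8 at 4.23, between the EpiLC and long-term fPSC values. Fgf5 was at 74.1, inside the long-term fPSC range, and Fgf15 at 41.2, its highest value in any library. At P10, P20 and P30 of the same CMT line, Fgf4 stood at 5.52, 6.54 and 10.2, Fgf5 at 107, 85.2 and 72.9, and Fgf8 at 75.1, 102 and 85.3. Each passage was a single library, so the step from P1 to P10 has no replicate check. Among the 7 long-term libraries, the highest value was 8.30 times the lowest for Fgf4, 3.16 times for Fgf15, 2.24 times for Fgf8 and 1.5 times for Fgf5.

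fPSCs made from E5.5 and E6.5 epiblasts carried Fgf5 at 112 and 116 FPKM and Fgf8 at 143 and 139, above all 7 mESC-derived fPSC libraries for both genes. Only these 2 of the 9 members had no overlap between the groups, where 15.4% of 11074 genes had none. Their Fgf4, at 2.21 and 3.37, lay inside the range of those libraries. Under limma none of the 7 tested members passed, where 0.452% of 11074 genes did (0.199% higher and 0.253% lower), and 1 of them, Fgf8, had an unadjusted p under 0.05. The log2 difference of Fgf8 was 0.99 (SE 0.30, adjusted p = 0.224), that of Fgf5 0.31 (adjusted p = 0.388) and that of Fgf4 -1.08 (adjusted p = 0.334), beside a median of -0.15 over all genes tested. Both epiblast-derived libraries belong to label set 1, and against the fPSCs of that set alone the Fgf8 difference was 0.69 (adjusted p = 0.129).

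Between label set 2 and label set 1, limma called none of the 7 members, and none had an unadjusted p under 0.05, where 29.7% of all genes passed (20.8% higher and 8.93% lower). The median over all genes tested was 0.19 on the log2 scale. Fgf8 lay lower in label set 2 with a difference of -0.52 (adjusted p = 0.107), and this passed without 46C (-0.74, adjusted p = 0.00433). The Fgfr2 difference of 0.45 (adjusted p = 0.137) passed without BVSC (0.62, adjusted p = 0.0387). Line and label set cannot be told apart except in CMT, where P11 of set 2 stood at 56.2 FPKM for Fgf8 and P10 of set 1 at 75.1. The study describes its CMT P11 cells as cryopreserved, so label set and freezing cannot be told apart in this pair of single libraries. The differences of Fgf4, Fgf5, Fgf8 and Fgf15 between fPSCs and mESCs kept their calls within each label set, at -3.55 and -3.63 for Fgf4 and at 6.25 and 5.73 for Fgf8.

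Among the receptors, Fgfr1 was the highest in all 19 libraries. It stood at 15.5 and 10.6 FPKM in mESCs, 20.9 and 15.7 in EpiLCs and 27.3 and 48.9 in EpiSCs. In fPSCs it ran from 9.05 in 46C through a median of 20.5 to 26.2 in CMT P30. Both EpiSC libraries lay above the range of the other 3 groups. Outside these groups, day 4 Epiblastoids stood at 32.5 FPKM and E6.5 fPSCs at 28.7, both above EpiSC library 1. Fgfr1 was higher in EpiSCs than in mESCs by 1.44 on the log2 scale (SE 0.41, adjusted p = 0.0109), which did not pass without EpiSC library 2 (1.04, adjusted p = 0.119) or mESC library 2 (1.19, adjusted p = 0.0935). It was higher in EpiSCs than in fPSCs by 0.91 (SE 0.33, adjusted p = 0.0461). This call was lost with no filter on low values (adjusted p = 0.0997), under upper-quartile scaling (0.0527) and in a fit of these groups alone (0.0598). Without EpiSC library 2 the difference was 0.50 (adjusted p = 0.462), and it did not pass without CMT P20, BVSC, CMT P11 or ROSAmTmG either (0.90 to 0.93, adjusted p = 0.052 to 0.0665). The difference was 0.63 (adjusted p = 0.0918) against the fPSCs of label set 1 and 1.12 (adjusted p = 0.0203) against those of label set 2. Between EpiSCs and EpiLCs it was 0.98 (adjusted p = 0.0782), which passed in a fit of these groups alone (adjusted p = 0.0393). Fibroblasts express Fgfr1, EpiSCs were grown on them, and 15 of the 20 fibroblast markers had a mean of 1 FPKM or more in EpiSCs, whose part in the Fgfr1 level was not tested. Between fPSCs and mESCs Fgfr1 differed by 0.54 (adjusted p = 0.206), and this passed without 46C (0.70, adjusted p = 0.0254) and with the fPSCs of label set 1 alone (0.82, adjusted p = 0.0231).

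Fgfr2 was lowest in naive cells. It stood at 1.22 and 1.16 FPKM in mESCs, 3.99 and 4.49 in EpiLCs, 4.88 and 3.65 in EpiSCs, and 1.97 to 5.45 in fPSCs with a median of 2.79. Every library outside the mESCs exceeded both mESC libraries, and the other 3 groups overlapped. It rose from mESCs by 1.26 in EpiLCs (SE 0.32, adjusted p = 0.00983), 0.86 in fPSCs (SE 0.26, adjusted p = 0.0162) and 1.26 in EpiSCs (SE 0.32, adjusted p = 0.0063). Each of these calls failed when certain single libraries were left out. The first did not pass without EpiLC library 2 (1.19, adjusted p = 0.0559) or mESC library 2 (1.24, adjusted p = 0.0584), the second without mESC library 1 (0.88, adjusted p = 0.0903) or 2 (0.84, adjusted p = 0.106), and the third without EpiSC library 1 (1.09, adjusted p = 0.0532). Against label set 1 alone, fPSCs lay below EpiLCs (-0.66, adjusted p = 0.0201) and EpiSCs above fPSCs (0.65, adjusted p = 0.0165), and with all 7 fPSC libraries neither passed (-0.40 and 0.40). Fgfr2 was 4.67% of the summed receptor FPKM in day 4 Epiblastoids and 36.8% in 46C, the lowest and highest shares.

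Fgfr3 and Fgfr4 were close to absent and did not pass the filter on low values. Fgfr3 reached 1.01 and 0.77 FPKM in EpiSCs and at most 0.290 in any other library. Fgfr4 was highest in mESCs, at 0.78 and 0.32 FPKM, and between 0.0348 and 0.295 elsewhere. The EpiSC values of Fgfr3 lay above all others, in the libraries with the fibroblast markers, whose part was not tested.

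**Figure D3:**
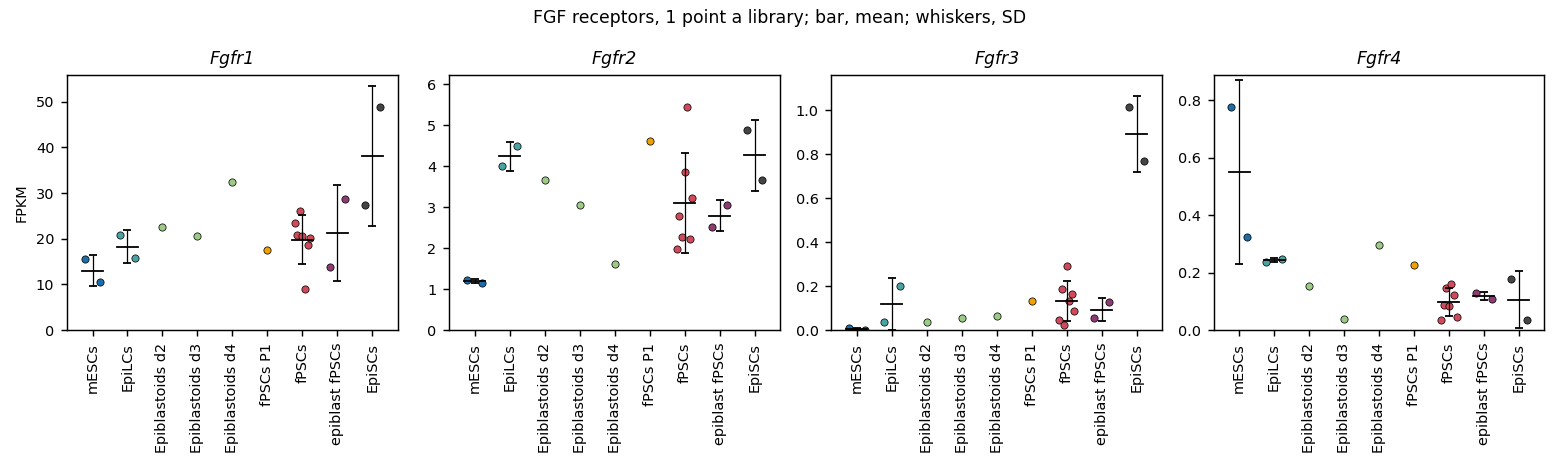
FPKM of the 4 receptors in each of the 19 libraries, 1 point per library, by group, with the horizontal bar at the group mean and a separate linear axis per gene. Fgfr1 reaches 48.9 FPKM in EpiSCs, Fgfr2 stays between 1.16 and 5.45, and Fgfr3 and Fgfr4 stay at or below 1.01.

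The genes around the members were read from 4 lists of 77 genes in the table, of which 62 were tested. The feedback and target list holds genes that FGF signalling is known to induce, among them the Sprouty and Spred inhibitors, the ERK phosphatases and the ETV factors. Of its 19 tested genes, 10 rose and 2 fell from mESCs to EpiLCs, 13 rose and 3 fell from mESCs to fPSCs, and 14 rose from mESCs to EpiSCs, which is 63.2%, 84.2% and 73.7% called against 29.6%, 40.3% and 47.8% of all genes. The median log2 changes were 1.59, 1.66 and 1.99, beside -0.06, -0.04 and -0.09 over all genes tested. Dusp6, an ERK phosphatase, was at 2.39 and 2.58 FPKM in mESCs, 73.5 and 87.4 in EpiLCs, 29.6 to 59.3 in fPSCs and 33.2 and 46.7 in EpiSCs. It rose from mESCs to fPSCs by 3.8 on the log2 scale (SE 0.23, adjusted p = 3.07e-08) and fell by 1.01 from EpiLCs to EpiSCs (adjusted p = 0.0163). Dusp4, a nuclear phosphatase, rose by 4.97 from mESCs to EpiLCs (adjusted p = 3.88e-06) and fell by 1.38 from EpiLCs to fPSCs (adjusted p = 0.0229). Myc, a growth factor target, rose by 4.93 in EpiLCs (adjusted p = 1.58e-06) and 4.68 in fPSCs (adjusted p = 1.31e-07). The mESC medium held the MEK inhibitor, so this difference and that of the medium cannot be told apart.

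EpiSCs had 6 of the 19 feedback genes above fPSCs, so that 31.6% were called, close to the 32.3% of all genes. Among the 6 were Phlda1 at 38.9 against 0.852 FPKM (4.38, adjusted p = 1.44e-07) and the nuclear ERK phosphatase Dusp5 at 57.1 against 2.47 (4.15, adjusted p = 1.56e-06). The EpiSC libraries held the fibroblast markers, whose part in these differences and in the rise from mESCs to EpiSCs was not tested. Between EpiLCs and fPSCs the list was split, with 2 higher (Il17rd and Etv1) and 3 lower (Dusp4, Dusp6 and Dusp14) of 19, or 26.3% called against 13.8% of all genes. Il17rd, a membrane inhibitor of FGF signalling, was at 9.12 FPKM in fPSCs and 2.94 in EpiLCs (1.32, adjusted p = 0.0104). Of 18 feedback genes tested between the label sets of fPSCs, 9 were lower in set 2, where 8.93% of all genes were, with Spred2 at 18.9 against 76.6 FPKM (-1.94, adjusted p = 0.000121) and Egr1 at 2.16 against 11.3 (-1.90, adjusted p = 0.00603). The fPSC levels of these 9 genes thus differed with the label set.

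Of the 17 tested receptor partners and adaptors, 1 rose and 1 fell from mESCs to EpiLCs, 3 rose and 3 fell from mESCs to fPSCs, and 7 rose and 2 fell from mESCs to EpiSCs. These are 11.8%, 35.3% and 52.9% called, below or near the 29.6%, 40.3% and 47.8% of all genes. Gab1, the docking adaptor that joins receptors to PI3K and SHP2, was high where Fgf4 was high. It stood at 45.2 and 55.9 FPKM in mESCs, 49.2 and 68.5 in EpiLCs, 8.03 and 9.84 in EpiSCs and 2.33 to 3.8 in fPSCs, and at 30.8, 9.49 and 3.83 on the 3 days of Epiblastoids. It fell by 3.71 on the log2 scale from mESCs to fPSCs (SE 0.18, adjusted p = 3.44e-09) and by 3.92 from EpiLCs to fPSCs (adjusted p = 1.03e-08).

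Heparan sulphate genes make and carry the sugar that ligand and receptor need. Of 20 tested, 3 rose and 4 fell from mESCs to EpiLCs, 8 rose and 6 fell from mESCs to fPSCs, and 13 rose and 1 fell from mESCs to EpiSCs. These are 35%, 70% and 70% called, where 29.6%, 40.3% and 47.8% of all genes were. Sdc4, a cell surface proteoglycan, was at a mean of 79.2 FPKM in mESCs, 9.70 in EpiLCs and 8.59 in fPSCs, a fall by 2.90 (adjusted p = 5.38e-06) and by 3.08 (adjusted p = 1.75e-07). Hs6st2, a 6-O-sulphotransferase, rose from 1.75 FPKM in EpiLCs to 5.26 in fPSCs (adjusted p = 0.0276). EpiSCs had 10 of the 20 genes above fPSCs and 1 below (Glce, -0.65, adjusted p = 0.0291), against 19% and 13.3% of all genes, and the neural proteoglycan Sdc3 was at 21.3 FPKM in EpiSCs and 0.300 in EpiLCs (4.07, adjusted p = 5.94e-08). The fibroblast markers moved with the EpiSCs here too, and their part was not tested.

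Of the other 17 FGF ligands, 6 reached the filter. From mESCs to fPSCs, Fgf13 and Fgf14, of the subfamily that is not secreted, rose and Fgf3 fell, 3 of 6 where 40.3% of all genes were called. Fgf3 was at 4.50 and 8.85 FPKM in mESCs and 0.127 to 0.432 in fPSCs, and fell by 1.65 from mESCs to EpiLCs (adjusted p = 0.000198) and 2.39 from mESCs to EpiSCs (adjusted p = 4.15e-06). Fgf2, the ligand added to the media as protein, was at 0.12 FPKM or less in every library.

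In single fPSCs, Fgf5 and Fgfr2 were the members seen in most cells. The tables hold 182 cells of 4 clones, with 307 to 722865 counts per cell and a median of 23422.5. Of these cells, 75.3% had an Fgf5 count (exact binomial 95% interval 68.4 to 81.4), 34.1% an Fgf8 count (27.2 to 41.4), 31.3% an Fgf15 count (24.7 to 38.6) and 13.7% an Fgf4 count (9.09 to 19.6). Among the receptors, 86.3% of the cells had an Fgfr2 count (80.4 to 90.9) and 50.6% an Fgfr1 count (43.1 to 58.0). Fgf17, Fgfr3 and Fgfr4 were counted in 2.75%, 2.2% and 2.17% of the cells with a row for them. For comparison, Col1a1, a fibroblast gene at 0.88 FPKM or less in all bulk libraries but EpiSCs, had a count in 29.1% of the cells and Dcn in 1.65%. Without regard to depth, the shares of Fgf4, Fgf17, Fgfr3 and Fgfr4 lay below that of Col1a1. The Fgf8 and Fgf15 intervals overlapped it, so that these shares alone do not tell those genes from background. Pou5f1 and Sox2, at 462 to 1025 and 24.1 to 42.6 FPKM in the long-term fPSCs, were counted in 9.34% and 13.7% of the cells, so a share below that of Col1a1 does not show that a gene was not expressed. Nor does a high share show a high level in bulk. Fgfr2, at 1.97 to 5.45 FPKM in the long-term fPSCs, was counted in more cells than Pou5f1 or Fgfr1, both higher in bulk. Intervals cover counting error only, and the Fgf8 share ran from 18.2 to 52.2% over the 4 clones.

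Depth bore on these shares. Cells with an Fgf5 count had a median of 38119 counts and cells without one 6972. With each cell thinned to 5000 counts, which left 167 of the 182 cells, the share was 57.5% for Fgf5, 58.7% for Fgfr2, 28.1% for Fgfr1, 16.2% for Fgf15, 15.6% for Fgf8 and 4.19% for Fgf4, with Col1a1 at 5.39%. Fgf5 and Fgfr2 thus remained the most often counted, at shares that lay close together. At this equal depth the shares of Fgf8 and Fgf15 lay above that of Col1a1, and that of Fgf4 below it.

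Summed over the cells of a clone, Fgf5 was at 238, 278, 319 and 272 CPM (counts scaled to the total of the clone) in clones 1 to 4, 277 ± 33.2 (SD, n = 4 clones). Fgf8 was at 69.9, 64.1, 14.4 and 28.6, and Fgfr2 at 474, 420, 221 and 230. In these sums both were higher in clones 1 and 2 than in clones 3 and 4, which are separate tables, so clone and table cannot be told apart. Single cells carried much of the Fgfr2 sums, with 271 of 711 counts in 1 cell of clone 1 and 550 of 1361 in 1 cell of clone 2. With each cell thinned to 5000 counts, Fgfr2 was at 445, 273, 271 and 312 CPM, so that clone 4 exceeded clone 2, and its share of cells before thinning was 87%, 84.8%, 84.8% and 88.6%. The split of Fgfr2 was thus not seen at equal depth. Thinned Fgf8 ran from 24.4 CPM in clone 4 to 53.7 in clone 2, from 5 to 11 counts a clone and with overlapping Poisson intervals. Fgfr1 was at 75.9, 119, 81.9 and 55.5, Fgf15 at 54.6, 52.4, 57.1 and 41.6, and Fgf4 at 20.0, 9.87, 16.3 and 6.53, with no such split.

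Most cells with an Fgf8 count had an Fgf5 count too. Of the 62 cells with an Fgf8 count, 56 also had an Fgf5 count, and 6 did not. Of all 182 cells, 32 had a count of no ligand, 64 of 1, 43 of 2, 36 of 3 and 7 of 4. For the receptors, 87 cells had Fgfr1 and Fgfr2, 70 Fgfr2 alone, 5 Fgfr1 alone and 20 neither. Deeper cells show more genes, and the part of depth in these overlaps was not tested.

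**Figure D4:**
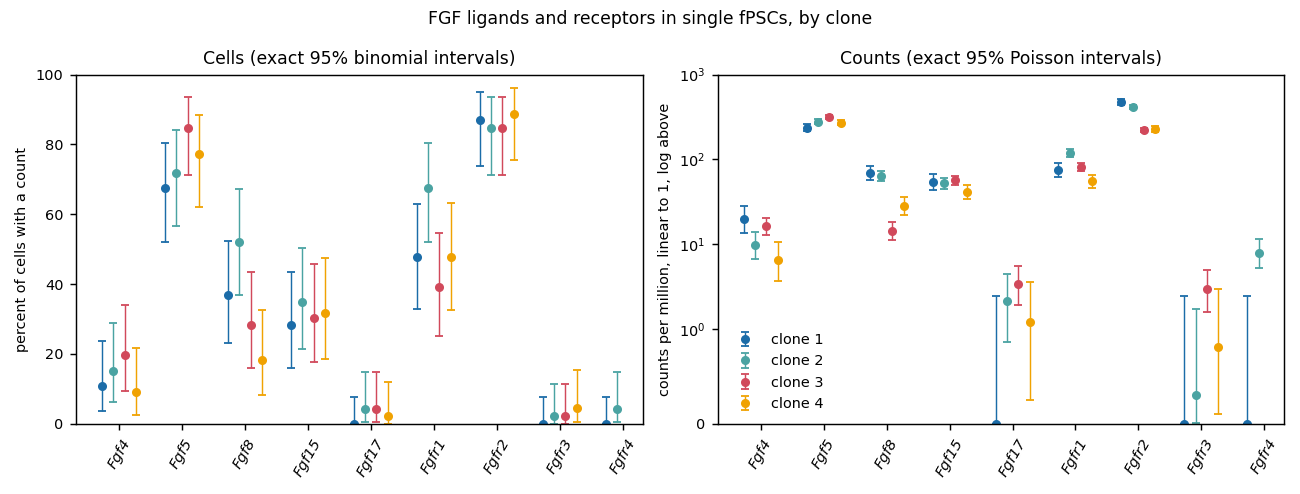
Left, percent of the cells of each clone with a count of each member, with exact binomial 95% intervals; right, CPM summed over the clone, with exact Poisson 95% intervals, on an axis that is linear to 1 and logarithmic above. Fgf5 and Fgfr2 are the highest members in all 4 clones, and the CPM of Fgfr2, 221 to 474, is not thinned to equal depth.

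At the promoters of P10 fPSCs, all 5 ligands carried more H3K4me3, the mark of active and poised promoters, than the median promoter. Values are RPKM, reads scaled to bin length and depth, averaged over the 100-bp bins within 5000 bp of the start, 1 file per mark and without replicates. Fgf5 had 6.19 RPKM, at percentile 99.8 of 22367 protein-coding promoters, Fgf8 4.14 (percentile 98), Fgf15 3.53 (95.5), Fgf4 2.28 (81.5) and Fgf17 2.01 (75.7), where the median promoter had 1.13. The H3K27me3 of Polycomb repression was between 0.45 and 1.16 RPKM at the 5 ligands, none of them past percentile 85.4, beside a median of 0.379. Methylation, the share of methylated calls in 100-bp windows within 1000 bp of the start, was 0.091 at Fgf4, 0.066 at Fgf5, 0.027 at Fgf8, 0.008 at Fgf15 and 0.114 at Fgf17, beside a median of 0.358. The Fgf4 promoter, whose gene stood at 5.52 FPKM in these cells, was thus nearly as little methylated as that of Fgf5, whose gene stood at 107.

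With the annotated starts, the receptors that were close to absent in RNA had the most H3K27me3. Fgfr3 had 3.64 RPKM (percentile 98.7) and Fgfr4 1.75 (92.1), with H3K4me3 at 2.41 and 1.23. Fgfr1 had 0.933 RPKM of H3K27me3 and 3.10 of H3K4me3 (percentile 92.4), with 4.49 around its most marked start. Fgfr2 depended on the start used. At the start of the transcript over 1 Mb it had 4.86 RPKM of H3K4me3 and 0.663 of H3K27me3. At the start that remained once that transcript was left out it had 2.51 and 2.31 (percentile 95.4 of H3K27me3). Methylation was 0.223 at Fgfr1, 0.141 at Fgfr3 and 0.262 at Fgfr4. If the lowest value of a file is 1 read, the tracks hold about 8100000 reads (H3K4me3) and 15600000 reads (H3K27me3), and the methylation windows come with no coverage, so their precision is unknown.

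**Figure D5:**
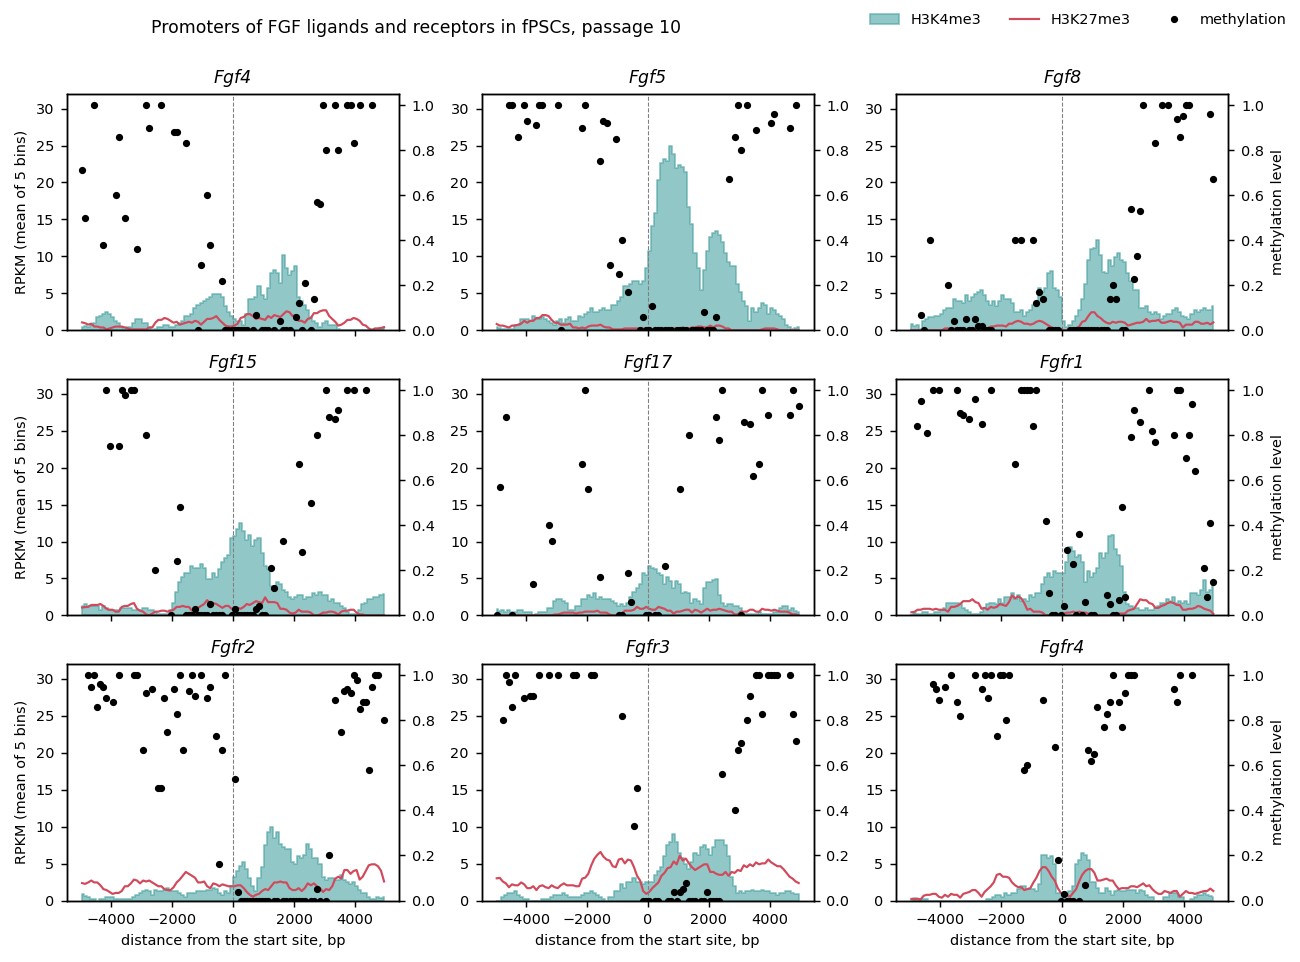
H3K4me3 (filled, RPKM), H3K27me3 (line, RPKM) and methylation level per 100-bp window (points, right axis from 0 to 1) within 5000 bp of the start site of each member in P10 fPSCs, with the marks averaged over 5 bins and the Fgfr2 start taken without the transcript over 1 Mb. H3K4me3 is highest after the start of Fgf5, the H3K27me3 line is highest around Fgfr3, and the points fall toward 0 near or after the starts.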

How the data were processed

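Bulk RNA libraries had been trimmed with cutadapt 1.11 and aligned to mm9 transcripts with TopHat2 2.1.1 by the authors, who deposited FPKM from Cufflinks 2.1.1. Of 23608 entries, 4 whose names occurred 2 times were left out. The single-cell tables the authors deposited hold unnormalised counts, and whether these are reads or molecular identifiers is not given in the sources used here. For the histone marks the authors deposited RPKM in 100-bp bins after alignment with Bowtie2 2.2.2, and for methylation the deposited values are fractions per window from BS-Seeker2. The labels list 2 replicates for each of these assays, and 1 file of each was read.

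Samples were grouped by their titles. FPKM are not counts, so log2(FPKM + 1) was tested with limma 3.58.1 (R 4.3.3, trend option) in 1 fit of 13 libraries, 2 each of mESCs, EpiLCs and EpiSCs and 7 fPSCs, with Benjamini-Hochberg adjustment over all genes that reached 1 FPKM in 2 or more of them. Epiblast-derived fPSCs and label sets were tested in fits of their own. On simulated data with 200 changed genes, between 18 and 50.5% of changes of 1 log2 unit and 77 to 91% of changes of 2 were recovered over the 6 main comparisons. The changed genes were drawn from those with a mean log2(FPKM + 1) above 2. More genes than these were called in each comparison of the real data, so the rates need not hold there or for lower genes. Single cells and promoters had no groups and got no test. Promoter coordinates are mm9, and all chromosomes fitted that build.

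Alternatives were a pseudocount of 0.1, no filter, upper-quartile scaling, other sets of libraries, each library left out, cells of at least 500 genes, thinning to 5000 counts, and other windows and start sites. The members and gene lists were chosen with earlier results of these data known. Of the listed genes, those named were the 2 with the largest rise and fall per comparison that passed, had a mean of 5 FPKM and did not overlap. Genes named where 5 or fewer passed, Fgf2, Fgf3 and Fgf10 in other places, and the genes checked in single cells were named after their values were seen. Python 3.11.15 with pandas 2.3.3, numpy 2.4.6 and scipy 1.17.1 was used for the rest.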

Additional observations from a re-analysis of the deposited data

How the results depend on the processing

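Of 1053 values under alternative settings for 107 results, 970 were classed as unchanged. Among values of single members these were 771 of 845, which kept their direction and their side of the threshold or stayed within the replicate spread. The other 199, of 208, were summary counts, which have no direction. They were classed as unchanged when near the main count, even where calls were gained or lost. For fPSCs against mESCs, 7 members called with label set 1 alone were classed as unchanged beside 5 in the main fit. Leaving out single libraries, the count of changed members ran from 2 to 3 (EpiLCs against mESCs, 4 with all libraries) and from 0 to 1 (label sets of fPSCs, 0 with all, 1 without 46C or without BVSC). The count of changed genes on the 4 pathway lists ran from 13 to 17 (EpiLCs against mESCs, 24 with all, lowest without EpiLC library 1), from 5 to 15 (fPSCs against EpiLCs, 15 with all, 5 without either EpiLC library), from 17 to 22 (EpiSCs against EpiLCs, 29 with all, lowest without EpiSC library 2) and from 13 to 27 (EpiSCs against fPSCs, 24 with all, lowest without EpiSC library 2). A fit with fewer libraries has fewer degrees of freedom, and leaving out 1 of 2 leaves a lone library that is assumed to vary like the other groups.

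Every value that changed sign was one that did not pass in the full fit. With libraries left out, these ranged from -0.32 to 0.44 (Fgf17, EpiSCs against mESCs), -0.13 to 0.26 (Fgfr1, fPSCs against EpiLCs), -0.52 to 0.24 (Fgf17) and -0.17 to 0.17 (Fgfr2, both EpiSCs against EpiLCs) and -0.19 to 0.33 (Fgf15, EpiSCs against fPSCs). The epiblast-derived against induced differences ranged from -0.48 to 0.36 (Fgf15), -0.43 to 0.57 (Fgfr1) and -0.18 to 0.0442 (Fgfr2), and the label-set differences from -0.49 to 0.36 (Fgf4) and -0.38 to 0.13 (Fgf15). Under upper-quartile scaling Fgfr1 was at -0.0201 (fPSCs against EpiLCs) and Fgf15 at 0.0066 (epiblast-derived against induced). With label set 2 alone Fgfr1 was at -0.14 (fPSCs against EpiLCs), and with label set 1 alone the epiblast-derived difference was -0.21 for Fgfr1 and 0.19 for Fgfr2. With P1 and epiblast-derived libraries added, Fgf15 was at -0.0644 (EpiSCs against fPSCs). Without 46C the label-set difference was 0.36 for Fgf4 and 0.13 for Fgf15. The causes were not tested.

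With the replicate block, in a fit of mESCs, EpiLCs and EpiSCs, 5, 6 and 3 members were called (EpiLCs and EpiSCs against mESCs, EpiSCs against EpiLCs), and 5, 6 and 4 in the same fit without it; 27, 42 and 32 listed genes were called with the block and 26, 42 and 34 without. The pairing rests on a shared number only, as deviations of same-numbered libraries correlated at 0.204 (mESCs and EpiLCs), -0.199 (mESCs and EpiSCs) and -0.134 (EpiLCs and EpiSCs). The exchanged numbers were tried after the data were seen. With EpiSC numbers exchanged, 6 and 4 members and 42 and 36 listed genes were called in the EpiSC comparisons.

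Depth limits Fgfr3 and Fgfr4, which lie near the level of single fragments in several libraries. Upper-quartile scaling moved the median of all genes by at most 0.0984 on the log2 scale.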

Other observations

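On day 4 of Epiblastoids, ligands outside the members appeared. Fgf3 stood at 37.5 FPKM and Fgf10 at 12.5, where day 3 had 0.426 and 0.002. No other group exceeded 8.85 FPKM for Fgf3, in mESCs, or 2.60 for Fgf10, in fPSCs. These are values of 1 library with no replicate check.

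Over the 19 libraries, the genes whose log2(FPKM + 1) correlated best with a member, among 12682 genes compared, were Msh6 (Pearson r = 0.939) and Xlr3b (0.938) for Fgf4, Cldn6 (0.969) and Esrp1 (0.967) for Fgf5, Wnt3 (0.953) and Arhgef26 (0.949) for Fgf8, Trio (0.960) and Jph4 (0.949) for Fgf15, and Cx3cl1 (0.797) and Ccdc97 (0.783) for Fgfr1. Between members, r was -0.872 for Fgf4 and Fgf8, 0.797 for Fgf5 and Fgf15, 0.730 for Fgf5 and Fgf8, and 0.043 for Fgfr1 and Fgfr2. The libraries fall into states, so these are descriptions and carry no p.

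The order of the main receptors differed between the assays. Fgfr1 exceeded Fgfr2 per length in all 19 bulk libraries, whereas the single-cell tables held 1023 counts of Fgfr1 and 3679 of Fgfr2, values not divided by length. The longest annotated transcript has 4988 bases for Fgfr1 and 4429 for Fgfr2. The cause of the different order was not tested. The tables held 182 cells, and 1 cell name occurred 2 times.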
